A study of Rattus norvegicus with 2 samples.

Results

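The cells described here are macrophages of the infarcted rat heart that carried many transcripts of the complement component C1q and few of Spp1, the gene of osteopontin. They were chosen from raw counts of transcript molecules (unique molecular identifiers, UMIs). A cell entered with 200 or more genes, at most 20% mitochondrial UMIs, 10 or more UMIs of C1qa, C1qb and C1qc together, Spp1 under 0.3% of its UMIs, at most 2 UMIs of Lyve1, Folr2 and Cd163 together, no UMI of the T cell gene Cd3e or the B cell gene Cd79b, and at most 2 UMIs of 6 genes of dividing cells. This left 934 of 29949 cell barcodes. Because measured values chose the cells, the C1q, Spp1, Lyve1, Folr2 and Cd163 levels below are a description of the choice and not a finding.

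The study sorted CD45+ (blood-lineage) cells, with a propidium iodide stain, from the left ventricles of wild-type rats 7 days after surgery, with the infarct and its border included, and sequenced them with 10x Genomics 3′ v2 chemistry. Strain, age and the number of hearts behind a sample were not given in the labels. All animals had a myocardial infarction (MI). One sample was labelled MI, and the other PUR-hAESC, a patch of human amniotic epithelial stem cells on an antioxidant polyurethane scaffold. The deposited matrix holds both samples as barcode suffixes 1 and 2, and neither the labels nor the files tie a suffix to a sample. The suffixes are therefore called library 1 and library 2, and no value below can be read as an effect of the patch. With 1 library on each side there is no replicate, no test and no p-value. Intervals are exact 95% Poisson intervals for counts and Clopper-Pearson intervals for shares. For a ratio between the libraries, the exact binomial interval of library 2's part of the gene's UMIs was put on the scale of the ratio. All of them cover counting error only.

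C1q is the recognition part of the classical complement pathway. It is assembled from the A, B and C chains and, unlike most complement, is made largely by tissue macrophages, where it tags dying cells and immune complexes for removal. In the heart, macrophages with high C1q include long-lived resident cells, which tend to carry Lyve1, Folr2 and Cd163, and cells that mature from blood monocytes and often carry more MHC class II, the molecules that present antigen to CD4 T cells. Spp1 marks lipid-handling, scar-associated macrophages after infarction.

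Library 1 held 383 of the cells, 2.71% (2.45 to 2.99) of its 14137 cells that passed the filters, and library 2 held 551, 3.54% (3.26 to 3.85) of 15551. As a share of C1q-high cells that is 25.5% of 1501 in library 1 and 33.2% of 1662 in library 2. The limit on Lyve1, Folr2 and Cd163 set most of the difference from all C1q-high cells, since it alone left out 824 cells of library 1 and 646 of library 2. The cells had a median of 5198 UMIs and 1825 genes in library 1 and of 5289 UMIs and 1941 genes in library 2, from 2070301 and 3031065 UMIs in all. Over all cells that passed, the median was 3732 UMIs in library 1 and 4395 in library 2. The libraries shared 71 barcode sequences; 2 of the selected cells in library 1 and 5 in library 2 carried one of these, and none was selected in both. Scrublet, a doublet caller, marked 18 of the 383 cells (4.70%) and 38 of the 551 (6.90%), against 4.07% and 6.82% of all cells that passed.

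Macrophage genes that the rule did not use were present at high levels. Cd68, a lysosomal membrane protein of macrophages, stood at 648 UMIs per 1000000 UMIs (CPM) in library 1 and 719 in library 2, and Csf1r, the receptor for the growth factor macrophages depend on, at 577 and 535 CPM. The lysozyme gene Lyz2 reached 17130 and 15591 CPM. In lymphocytes of the same libraries (3188 and 6031 cells with 2 or more UMIs of Cd3e and Cd79b and at most 2 of C1q), Cd68 had 73.8 and 50.1 CPM and Csf1r 47.9 and 37.7 CPM. All 14 listed pan-macrophage genes passed 20 CPM in at least 1 library. Of the 6 genes that label the cells, Ms4a7, a membrane protein of mature macrophages, had 220 CPM in library 1 and 328 in library 2, a log2 ratio of 0.56 (0.40 to 0.71). Here and below, a ratio is library 2 over library 1 after adding 10 CPM, unless stated otherwise. The mannose receptor gene Mrc1 had 442 and 340 CPM (ratio -0.37), and the selenium transporter gene Selenop 95.2 and 90.7 CPM (-0.06). The 3 differed in direction between the libraries.

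Depth governs how many cells show a low gene, so each cell was also thinned to 1500 UMIs, which left out 27 cells in each library. At that depth 27.2% (22.7 to 32.2) of the cells in library 1 and 33.0% (29.0 to 37.2) in library 2 had an Ms4a7 UMI, against 0.221% and 0.327% of lymphocytes with a similar median depth (4497 and 4489 UMIs). Without thinning the shares were 53.7% and 58.4%. Mrc1 was seen in 37.6% and 34.5% of thinned cells, and in 1.83% and 0.740% of lymphocytes. Both genes were seen in far more of the selected cells than of the lymphocytes.

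**Figure D1:**
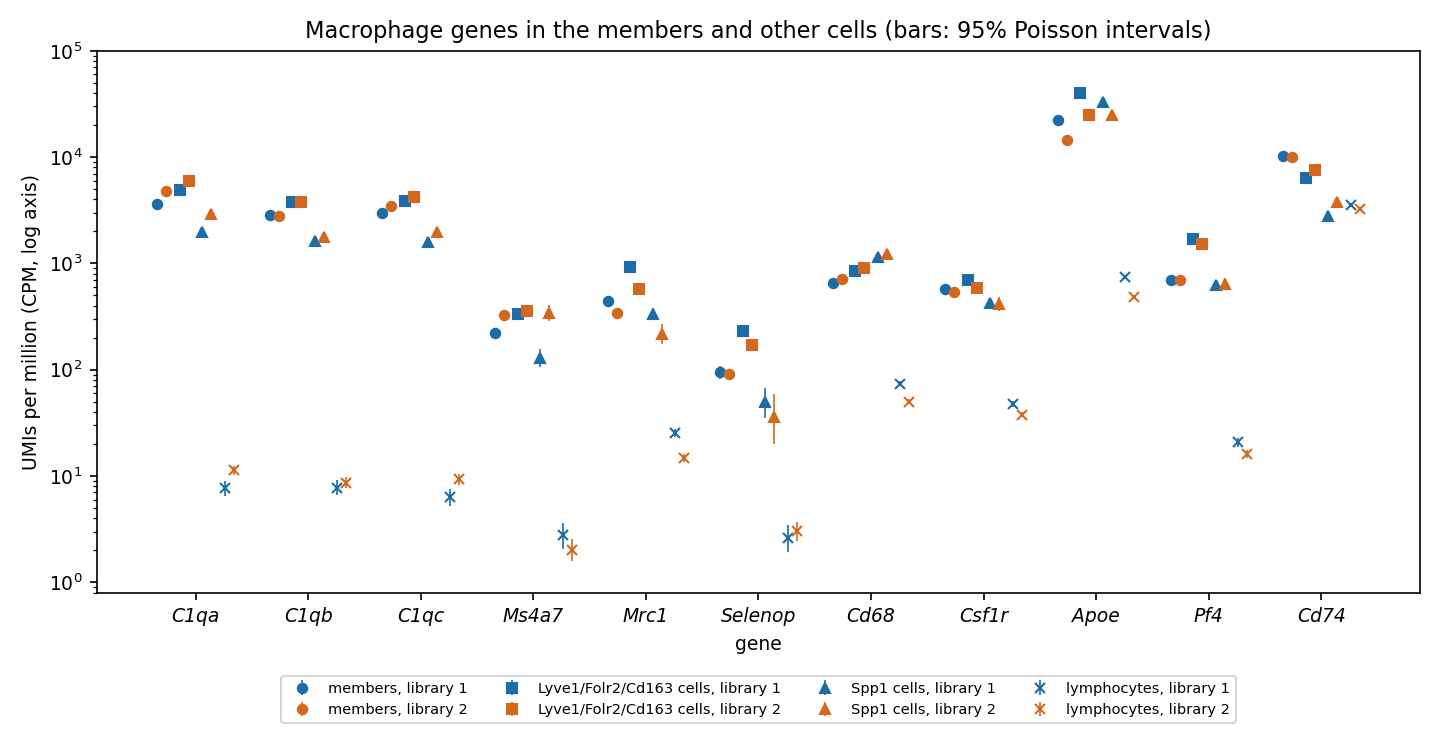
CPM (log axis) of 11 macrophage genes in the selected cells (members), in the C1q-high cells left out for Lyve1, Folr2 or Cd163, in those left out for Spp1, and in lymphocytes, for library 1 (blue) and library 2 (orange), with 95% Poisson intervals. Cells left out for Spp1 could also exceed the limit on Lyve1, Folr2 and Cd163. Lymphocytes lie far below the macrophage classes for every gene but Cd74, which B cells also express.

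Each chain of C1q had a broad spread across the cells. C1qa had a median of 13 UMIs a cell in library 1 and 20 in library 2, and the middle 80% of cells ran from 3 to 45 and from 5 to 55. C1qb had medians of 11 and 12 UMIs, and C1qc of 10 and 13. All 3 chains were seen in 95.3% of cells in library 1 and 98.0% in library 2. The A chain made up 38.1% of C1q UMIs in library 1 and 43.3% in library 2, while the B chain made up 30.2% and 25.6%. On the CPM scale, C1qa was at 3623 and 4780 (ratio 0.40), C1qb at 2871 and 2820 (-0.03) and C1qc at 3006 and 3436 (0.19). The difference between the libraries in C1q was thus mostly one of the A chain.

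Cells just inside the C1q limit, with 10 to 12 UMIs, numbered 57 and 42 and had 145 and 433 CPM of Ms4a7. Cells just outside, with 7 to 9 UMIs, numbered 58 and 44 and had 90.9 and 123 CPM. Ms4a7 was lower outside that limit in both libraries, but no intervals were computed for these small groups. Mrc1 had 347 CPM inside and 568 outside in library 1 and 366 and 331 in library 2, and Selenop 106 and 136 in library 1 and 73.1 and 84.7 in library 2, so the label genes did not share a direction. Cells with 2 UMIs of Lyve1, Folr2 and Cd163 had 32049 and 16827 CPM of Apoe, and cells with 3 UMIs, outside the limit, had 33242 and 20800. Apoe was close on both sides of that limit in library 1 and somewhat higher outside it in library 2. Only 12 and 7 cells had Spp1 from 0.3% to under 0.5% of their UMIs, just outside that limit.

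Among 5617 genes with 20 CPM or more in at least 1 library, 46 (0.819%) were 2-fold or more higher in library 2 and 16 (0.285%) in library 1, and the median ratio over all of them was 0.03. Several genes with the largest ratios are on the list of the type I interferon response, the antiviral program that cells start after sensing interferon through its receptor IFNAR. Of 33 listed type I genes above 20 CPM, 32 were higher in library 2, against 55.4% of all genes tested, and 7 were past 2-fold. The gene lists here and below were chosen with earlier results of these data known, so such counts are a description and no test. Their median ratio was 0.73, and the medians of the gene-wise interval bounds were 0.36 and 0.97. The exception was Cxcl11, described below.

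Irf7, the transcription factor that amplifies type I interferon production, had 65.7 CPM in library 1 and 235 in library 2, a ratio of 1.69 (1.46 to 1.93). Slfn4, a Schlafen gene of myeloid cells, had 497 and 1516 CPM (1.59), and Ly6e, a membrane protein that limits viral entry, 335 and 845 CPM (1.31). Mx1, a dynamin-like antiviral GTPase, had 66.7 and 157 CPM (1.12). These 4 were all more than 2-fold apart. Ifi27l2b, an interferon-inducible gene, had 295 and 1143 CPM (1.92), while lymphocytes had 2708 and 2522 CPM, so that its difference did not extend to them. Ifit3, which binds viral RNA, had 53.1 and 113 CPM (0.96), Parp14, an ADP-ribosyltransferase, 90.3 and 158 CPM (0.74), and Oas1a, which starts RNA decay upon double-stranded RNA, 44.9 and 75.9 CPM (0.64). The RNA sensor gene Ifih1 had 13.5 and 32.3 CPM (0.85).

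Other listed members differed less. Bst2, which tethers budding virus, was at 570 and 669 CPM (0.23), Oasl2 at 65.7 and 79.2 CPM (0.24, -0.04 to 0.51), and Ifi35 at 57.5 and 59.7 CPM (0.05). The Oasl2 interval included 0. Cxcl10, a chemokine for CXCR3+ T cells, had 48.3 and 56.8 CPM (0.20). Isg15, a ubiquitin-like modifier, had 51.2 and 140 CPM (1.30), but its ratio was 0.43 without sub-clusters 4, 5 and 6 and 1 haemoglobin-rich cell, which are described below, and 0.79 without the cells marked as doublets. Cxcl11 went the other way, with 123 CPM in library 1 and 10.9 in library 2 (-2.67), but 1 cell held 98.0% of its UMIs in library 1. Without the top cell of each library its ratio was 0.27.

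The interferon difference was spread over most cells. At 1500 UMIs a cell, the median sum over the list was 4 UMIs in library 1 and 11 in library 2, and the middle 80% of cells ran from 2 to 10 and from 5.3 to 20. A UMI of Irf7 was seen in 7.30% (4.83 to 10.5) of cells in library 1 and 26.9% (23.2 to 30.9) in library 2, and one of Slfn4 in 37.6% and 80.0%. Per-gene intervals for these shares did not overlap. Sub-clusters 0 to 3 of the cells, described below, each had a positive median ratio, namely 0.93, 0.76, 1.04 and 0.42. The other C1q-high cells gave medians of a similar size, 0.72 over 31 genes in the cells left out for Lyve1, Folr2 or Cd163 and 0.69 over 27 genes in those left out for Spp1. The summed list stood at 3752 and 7709 CPM in the selected cells, at 6301 and 7228 CPM in lymphocytes, and at 13598 and 26144 CPM in cells with 20 or more UMIs of the neutrophil genes S100a8 and S100a9. For Ifit3 the lymphocytes, at 67.5 and 104 CPM, lay near the selected cells, and the S100a8-rich cells far above them, at 2070 and 4518 CPM; the part of free RNA in that ratio was not tested. Irf7 had 43.4 and 86.6 CPM in lymphocytes, below the selected cells, and 255 and 430 CPM in S100a8-rich cells. Ly6e was lower than in the selected cells in both, at 195 and 260 CPM in lymphocytes and 64.1 and 88.4 CPM in S100a8-rich cells.

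**Figure D2:**
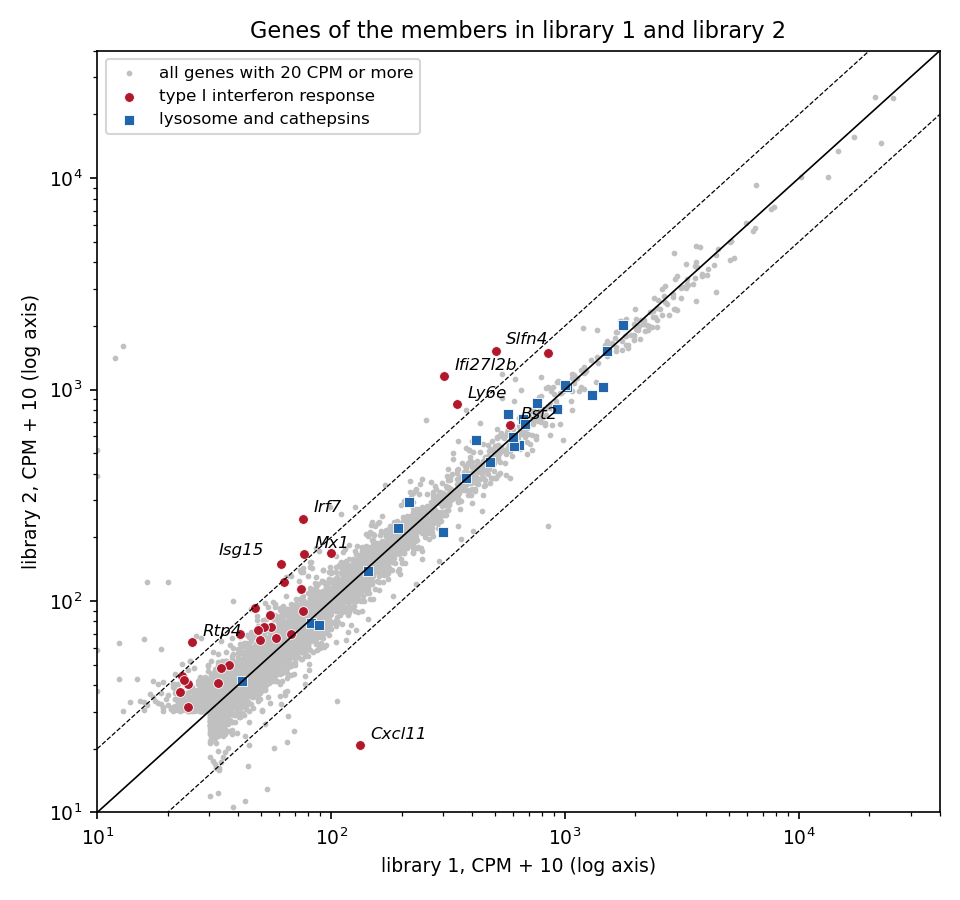
Level in library 1 (x) and library 2 (y) of each gene with 20 CPM or more in the selected cells (CPM + 10, log axes), with the type I interferon list in red, the lysosome list in blue, equal levels as a solid line and 2-fold as dashed lines. Of the 33 type I genes, 32 lie above the solid line and Cxcl11 lies below it, while lysosome genes split 12 to 12.

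Interferon-stimulated genes are known to be bound by IRF factors at repeats of GAAA. The letters GAAANNGAAA, or TTTCNNTTTC on the other strand, were looked for in windows of 300 bases, 250 before and 50 after a gene's start, from RefSeq on GRCr8. They occurred in 1312 of 33469 windows of all genes (3.92%). Lists were counted by gene instead, with a match in any window of a gene, so their shares are not like for like with that one. Matches were found for 19 of 32 genes of the type I list (59.4%) and 12 of 20 of the interferon gamma and class I list (60.0%). They were found for 1 of 12 of the class II list (8.33%) and 1 of 17 of the lipid list (5.88%). The lysosome list, whose genes split evenly between the libraries, had 4 of 19 (21.1%). A match is only a description of these letters. Stretches of 50 bases are shown for 5 type I genes picked among those with a match, and for Fcgr3a, which was among the genes most above in library 2. These 5 are not the matched genes with the largest ratios, since Ifit1bl (0.94) had a match and is not shown. The match is in capitals, and the strand of each gene reads 5′ to 3′.
Irf7: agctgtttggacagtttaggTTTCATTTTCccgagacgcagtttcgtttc
Ifit3: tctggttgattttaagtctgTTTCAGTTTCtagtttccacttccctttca
Parp14: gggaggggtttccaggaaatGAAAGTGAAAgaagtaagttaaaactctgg
Oas1a: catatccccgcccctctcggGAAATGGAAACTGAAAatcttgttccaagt
Ifih1: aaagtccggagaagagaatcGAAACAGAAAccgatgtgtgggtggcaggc
Fcgr3a: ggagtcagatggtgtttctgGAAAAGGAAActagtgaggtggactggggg
The Irf7 stretch is chr1:205800063-205800112 on the minus strand, with its match 69 bases before the start. The Ifit3 stretch is chr1:241527262-241527311 on the plus strand, with the match 44 bases before the start. Parp14 is shown at chr11:78408038-78408087 on the plus strand, 76 bases before the start, and Oas1a at chr12:41330405-41330454 on the plus strand, 41 bases before it, where 2 matches overlap. Ifih1 is shown at chr3:67683998-67684047 on the minus strand, 59 bases before the start, and Fcgr3a at chr13:85782511-85782560 on the plus strand, 105 bases before it. Windows of Slfn4, Mx1 and Trim25 (ratio 0.97) held no match to these letters.

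Genes that respond to interferon gamma or load class I MHC, which shows peptides to CD8 T cells, were higher in library 2 too. All 17 listed genes above 20 CPM had a ratio above 0 (55.4% of all genes did), with a median of 0.69, and 3 were past 2-fold. B2m, the light chain of class I, had 6515 CPM in library 1 and 9304 in library 2 (0.51), against 8978 and 8502 in lymphocytes. The class I heavy chain genes RT1-A2 (638 and 990 CPM) and RT1-A1 (421 and 681 CPM) had ratios of 0.63 and 0.68, though near-identical RT1 genes can share reads. Psmb9, a proteasome subunit that shapes class I peptides, had 207 and 318 CPM (0.60), and Tap1, a subunit of their transporter, 46.4 and 89.4 CPM (0.82). Gbp2, a GTPase that acts on vacuoles of microbes, had 47.8 and 83.5 CPM (0.69). Cxcl9, a chemokine driven by interferon gamma, had 2.42 and 32.7 CPM (1.78), few UMIs in library 1.

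Summed over cells, most class II genes were slightly lower in library 2. Of 12 above 20 CPM, 2 were higher in library 2 (55.4% of all genes were), and the median ratio was -0.16, with median bounds of -0.29 and -0.01. The invariant chain gene Cd74 had 10206 and 10103 CPM, and the DR-like chains RT1-Da and RT1-Db1 had 6366 and 5587 CPM (-0.19) and 5259 and 4184 CPM (-0.33). RT1-Ba, a DQ-like chain, had 2461 and 2408 CPM. The costimulatory gene Cd86 had 94.7 and 54.1 CPM (-0.71). Counted by cell, the direction was the other one. At 1500 UMIs the median cell had 12 UMIs of 5 class II genes in library 1 and 18 in library 2, and the top 10% had 106 or more and 94.0 or more. Cd74 was seen in 68.5% and 77.1% of thinned cells, and RT1-Da in 55.9% and 68.1%. Library 1 thus held a larger share of cells without these UMIs and a longer upper tail. In sub-clusters 0 to 3 the list's median was 0.01, -0.15, 0.66 and -0.48, without a common direction. The lowest and highest medians of any sub-cluster, -0.57 and 0.74, came from the small sub-clusters 6 and 4. Sub-cluster 6 had 2 cells in library 2, and Scrublet marked most of sub-cluster 4. In the cells left out for Lyve1, Folr2 or Cd163 the class II median was 0.14 over 8 genes, beside 0.02 over all genes. In those left out for Spp1 it was 0.56 over 8 genes, beside 0.01 over all genes.

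Fcgr3a, a low-affinity receptor for IgG, had 245 CPM in library 1 and 708 in library 2 (1.49, 1.36 to 1.63). Lymphocytes had 26.4 and 46.2 CPM and S100a8-rich cells 9.94 and 29.1 CPM. At 1500 UMIs, 19.7% (15.7 to 24.2) and 37.8% (33.6 to 42.1) of the cells had a UMI of it. Fcgr3a was also higher in library 2 in the cells left out for Lyve1, Folr2 or Cd163, at 141 and 428 CPM. Among all Fc receptor and ITAM signalling genes, 8 of 18 were higher in library 2 (median -0.01), so that the receptor stood alone in its list past 2-fold. Fam111a, a nuclear protease gene, had 2.42 and 53.4 CPM (2.35), and was likewise low in library 1 in lymphocytes, at 6.83 against 112 CPM.

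Some large ratios rested on few cells or moved with markers of other cells. Cxcl13, a B cell chemokine, had 10.1 and 113 CPM (2.60), with 21 UMIs in 3 cells of library 1 and 341 UMIs in 17 cells of library 2, and 1 cell gave 44.0% of the latter. Retnlg, a neutrophil gene, had 5.80 and 56.4 CPM (2.07), but its ratio was 0.25 without sub-clusters 4, 5 and 6 and the haemoglobin-rich cell. Slpi, a protease inhibitor, had 839 and 216 CPM (-1.91), Il1r2, a decoy receptor for interleukin 1, had 59.4 and 14.2 CPM (-1.52), and G0s2, an inhibitor of lipolysis, had 348 and 186 CPM (-0.87). Lymphocytes, too, had 940 and 284 CPM of Slpi, 50.7 and 19.1 of Il1r2 and 369 and 193 of G0s2, about the levels of the selected cells. Cells rich in S100a8 and S100a9 held far more, for Slpi 13801 and 7225 CPM, and numbered 4169 in library 1 and 1733 in library 2. Without those sub-clusters and that cell the ratios were -1.53 for Slpi and -1.08 for Il1r2, and the part of free RNA was not tested.

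The remaining genes highest in library 1 included Vcan, a matrix proteoglycan that monocytes carry, at 96.1 and 23.8 CPM (-1.65). Vcan was also higher in library 1 in lymphocytes, at 54.7 and 13.5 CPM, and in S100a8-rich cells, at 87.1 and 29.2 CPM. Others were Trpc6, a calcium channel, at 55.1 and 11.5 CPM (-1.59), and Thbd, an anticoagulant receptor, at 67.6 and 30.7 CPM (-0.93). Mmp12, the macrophage elastase, had 51.2 and 22.4 CPM (-0.92), and Pmepa1, a brake on TGF-beta signalling, 278 and 144 CPM (-0.91). Lymphocytes had 0.533 and 0.268 CPM of Trpc6, 33.8 and 19.0 of Thbd, 5.28 and 2.74 of Mmp12 and 199.6 and 108 of Pmepa1. Sparc, a matrix glycoprotein, had 105 and 55.1 CPM (-0.82), but its ratio was -0.10 without the top cell of each library. Scar-macrophage markers shared this direction, with 0 of 8 higher in library 2 (55.4% of all genes were) and a median of -0.46. Some genes that were far higher in the cells left out for Spp1 also differed in lymphocytes. Lymphocytes had 83.4 and 46.9 CPM of Gpnmb, 117 and 68.1 of Lgals3 and 121 and 49.3 of Fn1, but 30.9 and 43.7 of Fabp4. The part of free RNA was not tested.

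Apolipoprotein E, which carries lipid out of macrophages, was the most variable gene across the cells. Apoe had 22420 CPM in library 1 and 14620 in library 2 (-0.62, -0.64 to -0.60). At 1500 UMIs its variance was 126 times its mean in library 1 and 75.6 times in library 2, against a median of 1.03 over 1804 genes. The median cell had 2.5 and 1 UMIs of Apoe, while the top 10% had 119 or more and 81 or more. It was seen in 64.0% and 58.8% of thinned cells and in 26.9% and 18.2% of lymphocytes, so a low count of Apoe did not set a macrophage apart from a lymphocyte. Cells with 50 or more Apoe UMIs made up 23.9% of library 1 and 15.8% of library 2.

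Cells high in Apoe were low in class II. In library 1 the median sum of 5 class II genes (Cd74, RT1-Da, RT1-Db1, RT1-Ba and RT1-Bb) per 1500 UMIs was 34 in cells with no Apoe UMI, 28 with 1 to 9, 2 with 10 to 49 and 0 with 50 or more. In library 2 the same medians were 27, 21.5, 13 and 7. Median depth in these classes ran from 4664 to 5959 UMIs in library 1 and from 5399 to 5521 in library 2. The order was the same in both libraries, yet the ranges overlapped, since the top 10% of Apoe-high cells had 40.8 and 61.0 or more class II UMIs. Across cells, Spearman's rho was -0.39 over 356 cells and -0.22 over 524, a description of cells that share a library and a fixed total of UMIs.

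Genes were picked to describe these Apoe classes with their values known. Trem2, a lipid-sensing receptor, had a mean of 0.578 UMIs in cells without Apoe and 1.84 in cells with 50 or more in library 1, and of 0.481 and 1.67 in library 2. Gpnmb, a lysosomal stress glycoprotein, went from 0.430 to 1.93 and from 0.194 to 1.39, and Ctsd, the cathepsin D gene, from 0.539 to 1.91 and from 0.495 to 1.49. These 3 had higher means in Apoe-high cells. The label gene Mrc1 did too, going from 0.352 to 0.918 and from 0.292 to 0.831. The platelet factor gene Pf4 went from 0.5625 to 2.32 and from 0.630 to 1.89. Cd83, which holds class II at the surface, went from 0.695 to 0.153 and from 0.759 to 0.361, the neutrophil chemokine gene Cxcl2 from 4.36 to 2.51 and from 4.74 to 1.86, and Fcgr3a from 0.570 to 0.0706 and from 1.59 to 0.361. The early response gene Fos and the chemokine gene Ccl6 showed no common direction, with Fos going from 5.91 to 5.27 and from 7.50 to 7.73, and Ccl6 from 1.05 to 1.21 and from 2.19 to 1.61.

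**Figure D3:**
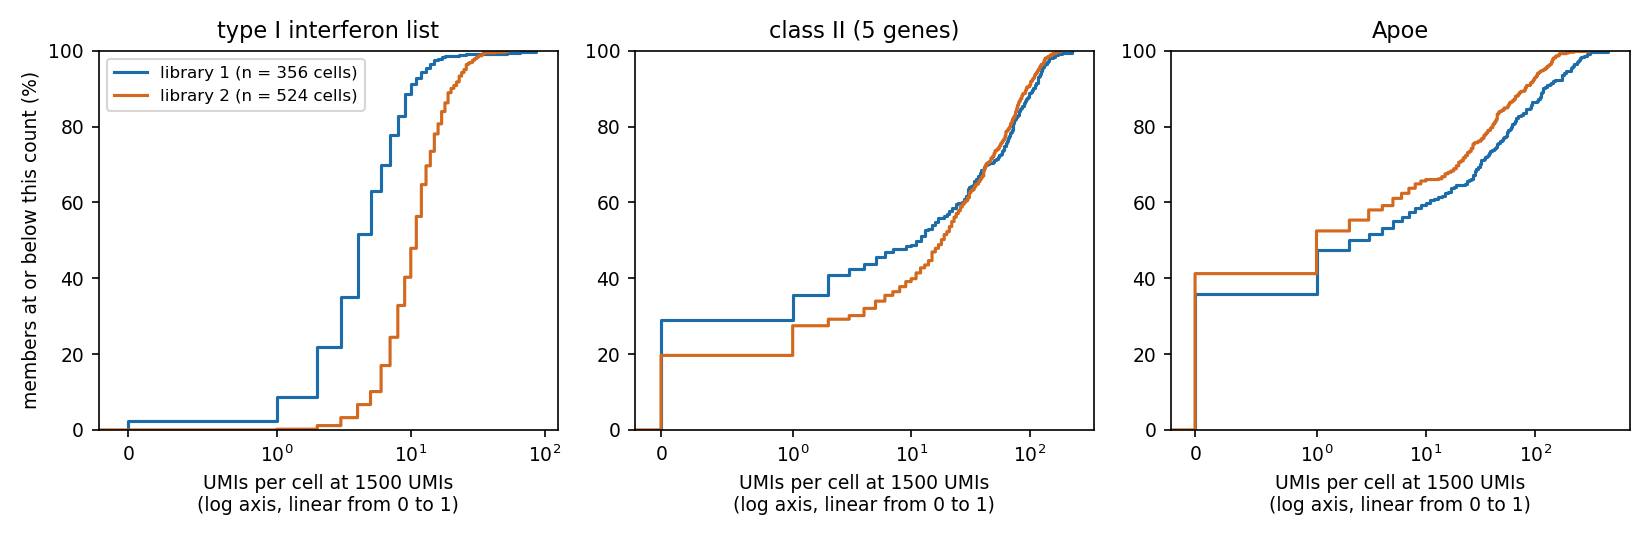
Share of the selected cells (y, %) at or below a count (x, UMIs per cell at 1500 UMIs, log axis that is linear from 0 to 1) for the type I interferon list, 5 class II genes and Apoe, in library 1 (blue) and library 2 (orange). The interferon curve of library 2 lies to the right of that of library 1 over most of its range (medians 11 and 4), while the class II and Apoe curves have long tails in both.

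Clustering of the selected cells gave 7 sub-clusters, which are ranges within them and carry no cell type name here. Their defining genes are a description, since the same cells were clustered. Sub-cluster 0 (131 cells, 34.2% of library 1, and 157 cells, 28.5% of library 2) was led by Emp1, Gpnmb, Apoe and Ctsd, and had 33059 CPM of Apoe. Sub-cluster 1 (106 and 169 cells, 27.7% and 30.7%) was led by Cxcl1, RT1-Db1, RT1-Da, Cd74 and Cd83, and had 19546 CPM of Cd74 against 5703 in the others. Sub-cluster 2 (80 and 94 cells) had nearly as much Apoe as sub-cluster 0, at 30487 CPM, and 9646 CPM of Cd74. It had a low median depth of 2601.5 UMIs and 906 CPM of the early response gene Fos, against 4524 and 5476 CPM in sub-clusters 0 and 1, and most of its other leading genes came from 1 cell each.

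Sub-cluster 3 took 33 cells, 8.62% (6.01 to 11.9), of library 1 and 84 cells, 15.2% (12.4 to 18.5), of library 2. It was led by Fn1 (fibronectin, 763 CPM), Fcnb (a ficolin of monocytes, 729 CPM), Prg4 and Vcan, and it was low in Mrc1 (189 CPM) and Apoe (4514 CPM). Fn1 was seen in 34.2% of its cells. It also had the smallest interferon ratio of sub-clusters 0 to 3, but the highest level. With both libraries pooled, its type I list summed to 8390 CPM, against 5173, 5357 and 6126 in sub-clusters 0, 1 and 2.

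The last 3 sub-clusters were small. Sub-cluster 4 (15 and 19 cells) had 34900 CPM of S100a9, a neutrophil and monocyte gene, against 115 in the other cells, and Scrublet marked 80.0% and 78.9% of it. Sub-cluster 5 (8 and 26 cells) was led by Ccl5, Nkg7, Gzmm, Xcl1 and Prf1, genes of cytotoxic lymphocytes, and Scrublet marked 6 of the 8 and 17 of the 26. Sub-cluster 6 (10 and 2 cells) was led by Stmn1 and Hmgb2, genes of dividing cells, at a median of 2054.5 UMIs. It held only 24580 and 3050 UMIs. Its pan-macrophage genes summed to 31198 CPM, between the lowest sum, 25068 in sub-cluster 5, and the highest, 61252 in sub-cluster 0. Its neutrophil genes summed to 326 CPM, its natural killer cell genes to 72.4 and its T cell genes to 145. Scrublet marked none of its cells. Sub-clusters 4 and 5 thus carried genes of other cell types beside those of macrophages. The neutrophil genes summed to 53035 CPM in sub-cluster 4 and the natural killer cell genes to 3551 in sub-cluster 5, far above their sums in sub-cluster 6. In library 2, 1 cell held 4784 of the 4820 UMIs of the haemoglobin gene Hba-a2. Without sub-clusters 4, 5 and 6 and that cell, the type I interferon median was 0.72 over 32 genes. The counts past 2-fold were then 35 genes higher in library 2, of which 30 were among the 46, and 18 in library 1, of which 14 were among the 16.

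**Figure D4:**
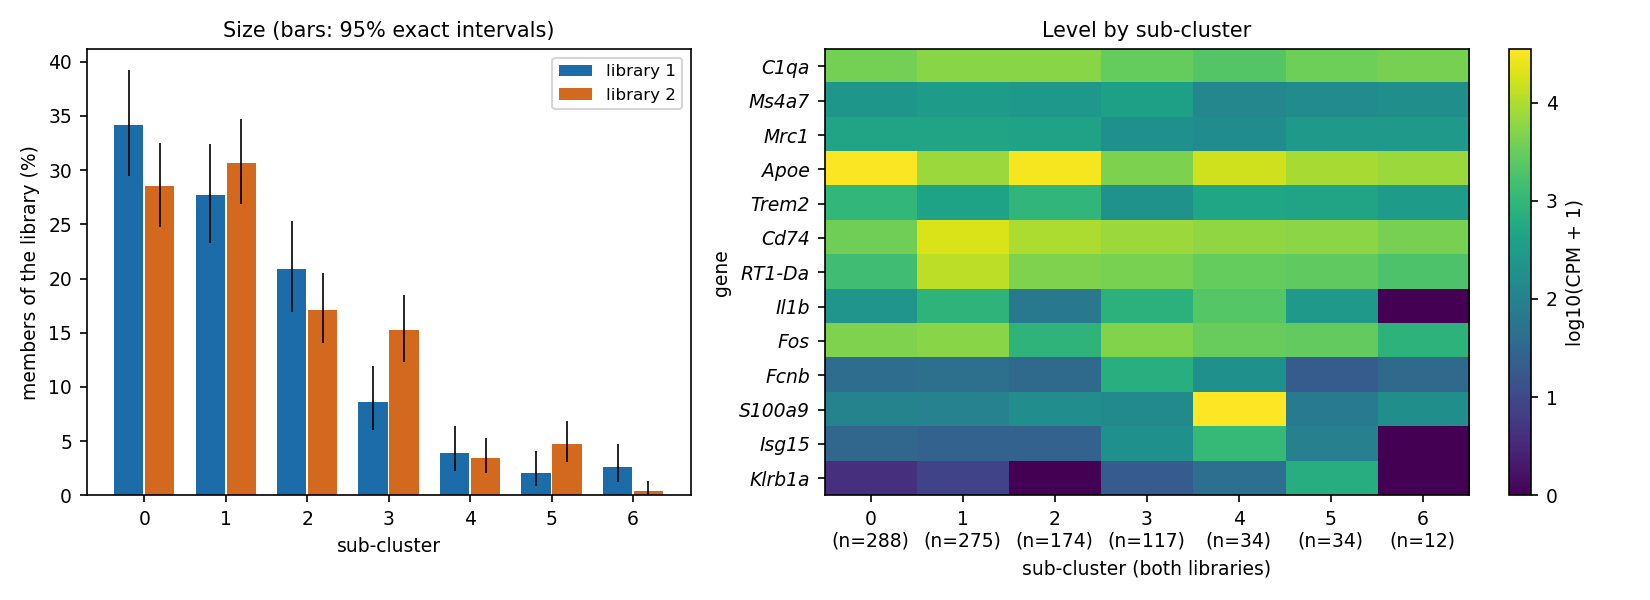
Left, share of each library's selected cells (%) in sub-clusters 0 to 6, with exact 95% intervals. Right, level of 13 genes in each sub-cluster over both libraries, as the log10 of CPM + 1: Apoe is brightest in sub-clusters 0 and 2, Cd74 and RT1-Da in sub-cluster 1, Fcnb in 3, S100a9 in 4 and Klrb1a, a natural killer cell receptor gene, in 5.

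Against the C1q-high cells that the rule left out for Lyve1, Folr2 or Cd163 (824 and 646 cells, median 7844 and 7475.5 UMIs), few genes were 2-fold or more apart in both libraries. The rule used this contrast, so the values describe the choice. Of 5236 genes, 3 (0.0573%) were higher in the selected cells, namely Ly49s7, Spn and Fcnb, and 18 (0.344%) were lower. Spn, the sialophorin CD43 of patrolling monocytes and lymphocytes, had 87.9 CPM against 37.7 in library 1 and 126 against 53.5 in library 2. Itgax, the integrin CD11c, had 79.7 against 38.9 and 78.9 against 40.3. Axl, a receptor for dying cells, had 124 against 58.0 and 135 against 85.0. Lower were Ccl24, an eosinophil chemokine, at 42.5 against 264 and 33.6 against 165 CPM, the complement gene C6 at 32.4 against 165 and 39.6 against 169, and the platelet factor gene Pf4 at 703 against 1698 and 695 against 1516.

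Class II was higher in the selected cells than in those. The median log2 difference was 0.74 over 11 genes in library 1 and 0.38 over 9 genes in library 2. Over all genes it was 0.02 in each library. The summed class II list had 25960 and 23848 CPM here and 16073 and 18331 CPM there. The 6 label genes were lower by medians of -0.51 and -0.37, with Mrc1 at 915 and 577 CPM in the other cells. Non-classical monocyte genes were higher by 0.44 and 0.08.

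Levels also differed by the UMIs of Lyve1, Folr2 and Cd163, which the rule used. In library 1 Apoe went from 11205 CPM in cells with 0 such UMIs to 23983 with 1 and 32049 with 2, and was at 39514 in cells with 3 to 5 and 40663 in cells with 6 or more. In library 2 it was at 7362, 18945, 16827, 24241 and 25080 CPM, lower with 2 UMIs than with 1. Spn went the other way, from 117 to 77.4, 68.2, 50.1 and 32.7 CPM in library 1 and from 158 to 109, 115, 68.1 and 42.1 in library 2. Median depth went up along the same steps, from 4154.5 to 8396 and from 4719 to 8069.5 UMIs, and the part of depth was not tested. Fcgr3a was highest in cells with 0 such UMIs, at 352 and 1272 CPM, against 124 and 428 in cells with 6 or more.

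Cells left out for Spp1 (75 and 48 cells) stood farther away. Only 28 and 21 of them were left out by Spp1 alone, and the others also exceeded the limit on Lyve1, Folr2 and Cd163. The rule used both limits, so these values, too, describe the choice. Of 5323 genes, 73 (1.37%) were 2-fold or more higher in the selected cells in both libraries and 90 (1.69%) were lower. RT1-Da had 6366 CPM against 1254 in library 1 and 5587 against 1929 in library 2. The inflammatory cytokine gene Il1b had 697 against 213 and 544 against 120, and the chemokine gene Ccl6 782 against 176 and 1136 against 308. S100a8-rich cells held more of both, with 5937 and 5016 CPM of Il1b and 3458 and 2191 of Ccl6. Among the selected cells, sub-cluster 4 had 2236 CPM of Il1b, against 228, 896, 68.3 and 825 in sub-clusters 0 to 3. The lipid chaperone gene Fabp4 was lower, at 108 against 1621 and 76.9 against 828 CPM. Gpnmb was at 570 against 3111 and 372 against 2025, the galectin gene Lgals3 at 679 against 3612 and 485 against 2531, and Fn1 at 167 against 1271 and 133 against 1091.

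The other lists lay closer to the median of all genes between the libraries. For the counts here and in the next paragraphs, 55.4% of all genes tested were higher in library 2. Of 20 genes of lipid handling, 8 were higher in library 2 (median -0.14). Trem2 was level at 647 and 642 CPM, Gpnmb was at 570 and 372 CPM (-0.60), Fabp5, a fatty acid binding protein, at 339 and 217 CPM (-0.62), and Lipa, the lysosomal acid lipase, at 205 and 283 CPM (0.44). For iron, 4 of 10 were higher in library 2 (median -0.06), with the ferritin chains Fth1 at 13329 and 10145 CPM (-0.39) and Ftl1 at 4401 and 2889 CPM (-0.61). Lysosomal genes split 12 to 12 (median 0.00), with Cd63 at 1295 and 928 CPM (-0.48) and the granulin precursor gene Grn at 561 and 758 CPM.

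Of 16 complement genes, 11 were higher in library 2 (median 0.10). C2, the serine protease of the classical pathway that C1q starts, had 78.7 and 162 CPM (0.95). The receptor gene C5ar1 had 261 and 279 CPM. Of 14 genes of uptake of dead cells, 4 were higher in library 2 (median -0.15). The beta-glucan receptor gene Clec7a had 505 and 385 CPM, and the TAM receptor genes Axl and Mertk had 124 and 135 and 29.0 and 22.4 CPM.

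Of 19 chemokine genes, 12 were higher in library 2 (median 0.20), beside 55.4% of all genes tested. Ccl6 had 782 and 1136 CPM (0.53), Ccl4 had 599 and 1113 CPM (0.88), and Ccl5 had 368 and 794 CPM (1.09). Ccl4 and Ccl5 were at 2342 and 2647 and at 6025 and 6982 CPM in lymphocytes, and sub-cluster 5 held most Ccl5, with 9627 CPM against 68.0 in the other cells. Cxcl16, a membrane-bound chemokine and scavenger receptor, had 434 and 256 CPM (-0.74). Inflammatory cytokine genes were higher in library 2 in 4 of 9 cases (median -0.06), with Il1b at 697 and 544 CPM (-0.35), the inflammasome sensor gene Nlrp3 at 146 and 115 CPM, and Casp1, its protease, at 60.9 and 91.7 CPM. Receptors split 11 to 12 (median -0.07), and the interferon receptor chains differed, with Ifnar1 at 141 and 172 CPM and Ifngr1 at 849 and 602 CPM (-0.49).

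Of 15 growth factor genes, 8 were higher in library 2 (median 0.18), near the share of all genes. Igf1 was level at 268 and 256 CPM, and the angiogenic gene Vegfa was at 133 and 72.3 CPM (-0.80). Of 20 antioxidant genes, 10 were higher in library 2 (median 0.00), with the peroxidase gene Prdx5 at 973 and 565 CPM (-0.77) and Txnip, a thioredoxin inhibitor, at 338 and 563 CPM (0.72). Immediate early genes were higher in 19 of 23 cases (median 0.19), with Fos at 3774 and 4696 CPM, and transcription factor genes in 19 of 26 (median 0.18). Matrix genes were higher in 5 of 14 (median -0.29), glycolytic genes in 5 of 13 (-0.05), genes of oxidative phosphorylation in 5 of 20 (-0.07), oxidant-producing genes in 5 of 6 (0.04) and regulators of inflammation in 6 of 13 (-0.01).

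**Figure D5:**
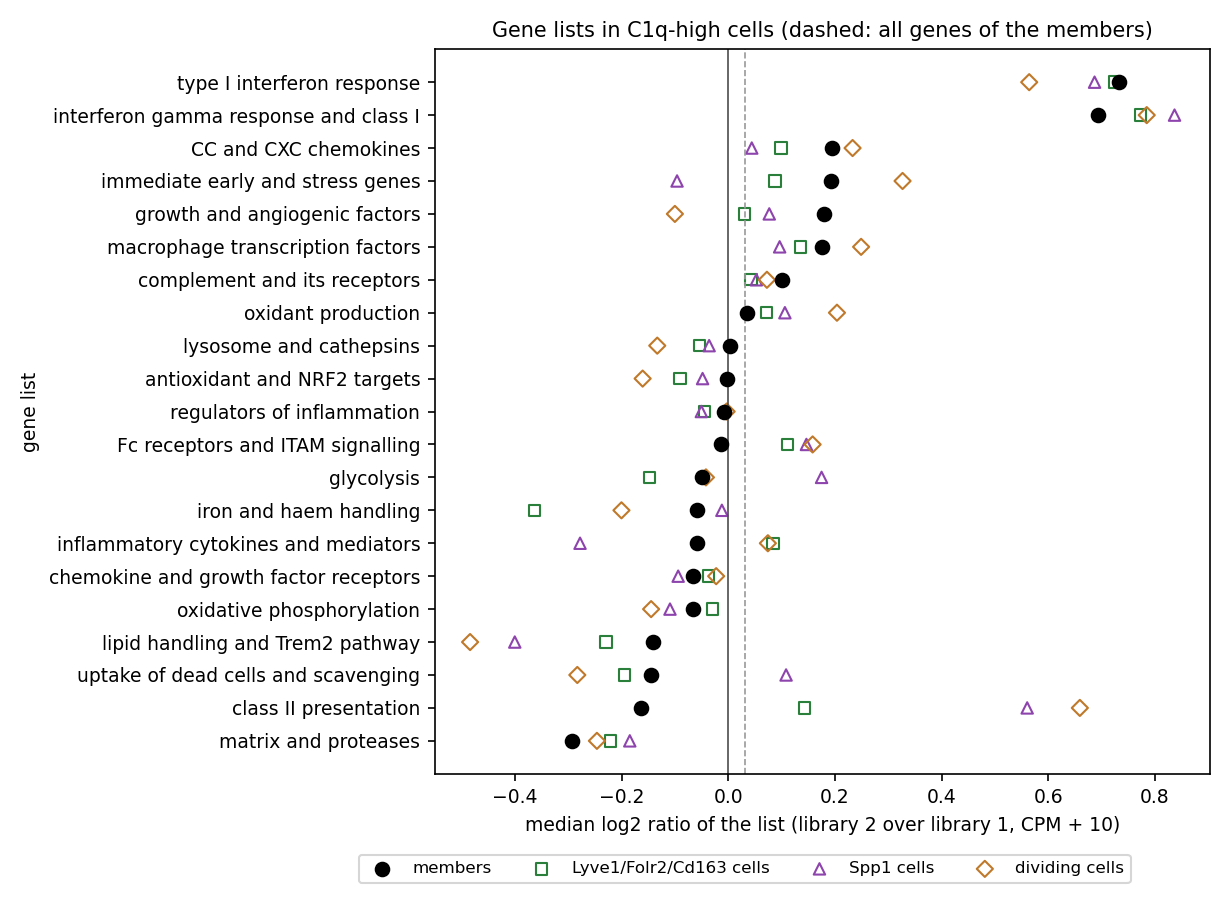
Median log2 ratio (library 2 over library 1, CPM + 10) of each pathway list in the selected cells (members, black) and in the other C1q-high cells, with the median of all genes of the members dashed at 0.03. The interferon lists stand at 0.73 and 0.69 in the members and lie at the right for all 4 classes, while class II, as a ratio of summed UMIs, lies left of 0 in the members and right of 0 in the other classes.

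Marker lists of other cell types were summed over all selected cells. The 6 B cell genes in the matrix summed to 11.1 and 4.29 CPM. The T cell genes summed to 232 and 237 CPM, of which Cd4, also a rat macrophage gene, gave 158 and 123; Cd3e was at 0 by the rule. Natural killer cell genes summed to 146 and 291 CPM and neutrophil genes to 2508 and 2596 CPM. Dendritic cell genes summed to 788 and 730 CPM, nearly all from Clec10a (755 and 719 CPM), with Siglech and Cd209a at 0. Heart muscle genes summed to 150 and 50.5 CPM, endothelial genes to 127 and 80.2, and fibroblast genes to 25.1 and 54.1. Erythroid genes summed to 2.90 and 1980 CPM, most of it from the haemoglobin-rich cell. Classical monocyte genes summed to 1745 and 1601 CPM, and non-classical ones to 376 and 443 CPM.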

How the data were processed

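Single CD45+ heart cells of 2 samples were measured. The deposited counts are UMIs per gene and cell in 1 matrix, whose header names Cell Ranger 4.0.0 (per the file headers); no build or annotation is given in the sources used here. Lines of 1 symbol were summed (32623 lines, 26976 symbols). The barcode suffix gave the library. A further deposited table of barcodes shared only 111 of its 33756 barcodes and suffixes with the matrix and was not used. The members, lists and comparisons were chosen with earlier results of these data known. Counts were summed over the cells of a library and scaled to 1000000 (CPM); 10 CPM was added before log2, and a gene was called at 2-fold if it reached 20 CPM in either library. The step was tested on simulated data. No count model was fitted, since each library is 1 sample.

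Scrublet (scanpy 1.11.5, expected doublets 8%) was run per library; marked cells were kept. Cells were clustered on 1000 variable genes, 20 components, 15 neighbours and Leiden resolution 0.5. Named genes were the 12 with the highest and lowest ratio between libraries among those with 50 UMIs and 50 CPM or more in the higher library, the 10 on either side of each comparison with other cells, 8 per sub-cluster, up to 6 of each list or more where a result turns on it, and the 20 most variable genes; a selection of these is printed. Alternatives changed the limits of the rule, doublets, added CPM, minimum level, weighting of cells, and scaling (TMM, edgeR 4.0.16). Python 3.11.15 and R 4.3.3 were used.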

Additional observations from a re-analysis of the deposited data

How the results depend on the processing

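No paired analysis was possible because each group has 1 sample and no suffix can be tied to a sample. The share of selected cells in library 1 and library 2 was 1.85% and 2.80% with C1q at 20 UMIs or more, 3.54% and 4.11% at 5 or more, 3.39% and 4.20% at 0.2% of UMIs or more, 5.11% and 5.92% with the rule applied to cells thinned to 1500 UMIs, and 1.00% and 1.28% with no Lyve1, Folr2 or Cd163 UMI. It was 3.24% in library 2 without sub-clusters 4, 5 and 6. In each of these settings with a value for both libraries it was higher in library 2. Adding 1 CPM in place of 10 gave 88 genes past 2-fold in library 2 and 32 in library 1. The median of regulators of inflammation was 0.17 with no minimum level, and that of matrix genes was -0.13 with each cell weighted alike. With C1q at 20 UMIs or more, 1 gene was 2-fold higher than in the cells left out for Lyve1, Folr2 or Cd163. Leiden resolution 1 gave 14 sub-clusters. Cxcl11 reversed, to 0.85 with C1q at 20 UMIs or more and to 0.27 without its top cells; the first setting changes which cells are counted. Over 11 alternatives the type I interferon median ran from 0.56 to 0.82, and over 10 the class II median ran from -0.20 to -0.08. Counting each result under each alternative, list medians stayed between the medians of their gene-wise bounds in 209 cases and left them in 2. Gene ratios stayed within their intervals in 207 cases, left them with the same sign in 31 and reversed in 2. With 1 library on each side, counting error is the only error shown. The alternatives that left out sub-clusters 4, 5 and 6 or top cells were chosen after seeing the data. So was the alternative that left Ifi27l2b, Slfn4 and Ly6e out of the type I list. All alternatives of the comparison with cells left out for Lyve1, Folr2 or Cd163 were likewise not planned.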
